A study of Mus musculus with 9 samples.

Results

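Neurotrophins are secreted growth factors that neurons need for survival, for the growth of their processes and for the strengthening of synapses. They are made as precursors that proteases cut to the mature factor. Mature BDNF signals through the receptor tyrosine kinase TrkB and neurotrophin-3 mainly through TrkC, while the p75 receptor binds all neurotrophins and, together with sortilin, also binds the uncut precursors. In the hippocampus BDNF is made mostly by excitatory neurons and is induced by their activity. The 7 genes described here are the ligand genes Bdnf and Ntf3 (neurotrophin-3), the receptor genes Ntrk2 (TrkB), Ntrk3 (TrkC) and Ngfr (p75), Sort1 (sortilin), and Vgf, a neuropeptide precursor that neurotrophins induce. They were chosen by symbol from the 54513 genes of the table, and all 7 were found and passed the filter on low counts, which left 18690 genes to be tested.

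The 9 RNA-seq libraries, made from oligo(dT)-captured RNA of what the labels call hippocampal tissue, came from 3 groups of 3 mice. Every mouse ate high-fat food over 12 weeks, and no supplement is stated for the group called HFD. The Trp group ate it with tryptophan added at 0.5% by weight, and the IPA group was given indole-3-propionic acid, a tryptophan product of gut bacteria, gavaged once a day at 100 mg/kg in saline. No chow-fed group was among the libraries. Strain, sex and age are not stated in the sources used, nor is a sham gavage of the other groups. The columns carry codes (WTB for HFD, HEB for IPA, HOB for Trp) tied to the samples by the labels, without an explanation.

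Total counts ran from 40621084 (IPA 2) to 50938746 (Trp 1) per library. The summed level of 5 dentate granule cell markers ran from 209 to 277 CPM (counts scaled to a common library size, adjusted by TMM) and that of 6 CA pyramidal markers from 191 to 246 CPM. Calb1 made up most of the dentate sum (173 to 243 CPM), and Wfs1 (50.3 to 98.2 CPM) and Ociad2 (80.5 to 101 CPM) most of the CA sum. Several other markers were low and varied widely between libraries. C1ql2 ran from 2.12 to 15.5 CPM, Dsp from 0.182 to 8.40, Spink8 from 1.17 to 8.26 and Lct from 0.225 to 8.96 CPM. For IPA against HFD the median log2 fold change was -0.59 over the dentate and -0.64 over the CA markers, and for Trp against HFD -0.37 and 0.012, with 0 called. Markers of striatal projection neurons were present too, from 652 CPM in HFD 3 to 2954 CPM in IPA 3. Microglial markers ran from 108 to 121 CPM in HFD, 113 to 126 in IPA and 154 to 206 in Trp. HFD 3 had the highest sums of blood cell (2212 CPM), oligodendrocyte (14395 CPM) and thalamus and habenula markers (355 CPM). In such bulk tissue, fewer cells of a type and less RNA per cell cannot be told apart.

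Promoter windows of 4 of the 7 genes were in the RefSeq table for build GRCm38.p6, 7 for Bdnf, 2 for Ntf3, 1 for Ngfr and 1 for Ntrk2. Each window is 300 bases long, lies mostly before a start site and is given 5′ to 3′ on the gene's strand. Printed are 1 window each of Bdnf, Ntf3 and Ngfr, the 3 genes whose group means differed most, and capitals mark matches, on either strand, to the motifs searched: CRE (TGACGTCA), a CRE variant (TGACGTGA), the shorter TGACG, which lies within both of these (20.8% of all windows), the AP-1 site TGANTCA (7.81%), the E-box CACGTG and the GC box GGGCGG. The Bdnf window, chr2:109692186-109692485 on the plus strand, is the promoter before exon IV, whose CRE is known to take part in induction by neuronal activity. The Ntf3 window is chr6:126166695-126166994 and the Ngfr window chr11:95587649-95587948, both on the minus strand.
Bdnf: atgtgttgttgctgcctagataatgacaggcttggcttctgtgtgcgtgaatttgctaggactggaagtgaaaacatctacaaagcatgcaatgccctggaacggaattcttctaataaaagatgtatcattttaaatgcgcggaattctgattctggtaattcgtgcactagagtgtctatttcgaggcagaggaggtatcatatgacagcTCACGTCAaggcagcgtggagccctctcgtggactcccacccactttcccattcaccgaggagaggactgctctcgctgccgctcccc
Ntf3: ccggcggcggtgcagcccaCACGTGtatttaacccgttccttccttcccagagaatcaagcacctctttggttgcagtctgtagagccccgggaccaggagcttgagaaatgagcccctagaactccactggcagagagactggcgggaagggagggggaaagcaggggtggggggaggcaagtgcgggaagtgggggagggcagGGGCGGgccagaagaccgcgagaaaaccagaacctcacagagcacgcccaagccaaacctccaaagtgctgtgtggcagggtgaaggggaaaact
Ngfr: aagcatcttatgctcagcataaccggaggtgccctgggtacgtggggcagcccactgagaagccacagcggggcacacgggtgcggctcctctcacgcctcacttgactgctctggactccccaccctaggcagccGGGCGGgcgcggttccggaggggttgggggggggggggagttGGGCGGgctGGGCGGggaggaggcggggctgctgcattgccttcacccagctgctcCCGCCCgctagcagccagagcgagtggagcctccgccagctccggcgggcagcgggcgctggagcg
The Bdnf window held 1 match to the CRE variant (TCACGTCA, bases 213 to 220 of the window), a motif found in 0.441% of all 32851 promoter windows, and the full CRE, found in 1.79%, in none of the 7 Bdnf windows. The Ngfr window held 4 GC boxes, and 35.7% of all windows held at least 1. The Ntf3 window held 1 E-box (7.15% of all windows) and 1 GC box. These matches describe letters in a window, and the gene-level counts do not say which promoter was used.

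The first comparison is of levels between genes, made in FPKM (fragments scaled to gene length and to library size), which are per length. The Trk receptor genes and Sort1 stood above both ligand genes, and Ngfr did not. Ntrk2 had a mean of 58.4 FPKM over the 9 libraries (53.4 to 68.1), Vgf 57.8 FPKM (42.4 to 76.2) and Sort1 48.3 FPKM (43.8 to 51.3). Ntrk2 was above Sort1 in all 9 libraries, while the range of Vgf overlapped both. Ntrk3 followed at 10.2 FPKM (8.29 to 11.8) and Bdnf at 5.67 FPKM (4.45 to 7.66), and those ranges did not overlap each other. Ngfr, at 0.895 FPKM (0.466 to 1.29), and Ntf3, at 0.629 FPKM (0.290 to 1.11), were lowest and overlapped. Ntrk2 exceeded Ntrk3 in every library, by 4.82 to 6.81 times, and exceeded Bdnf by 7.37 to 15.3 times.

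Among the 11 other ligand and receptor genes listed, Lingo1, a p75 co-receptor, had a mean of 61.7 FPKM, and its range (47.4 to 79.2) overlapped that of Ntrk2. The sortilin relatives Sorl1 (18.4 FPKM), Sorcs2 (6.61), Sorcs3 (5.09) and Sorcs1 (5.02) lay between Sort1 and Ngfr. Ntf5, the neurotrophin-4 gene, gave 0 to 22 counts per library and was not tested. Bdnf was above Ntf3 and Ntf5 in every library.

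**Figure D1:**
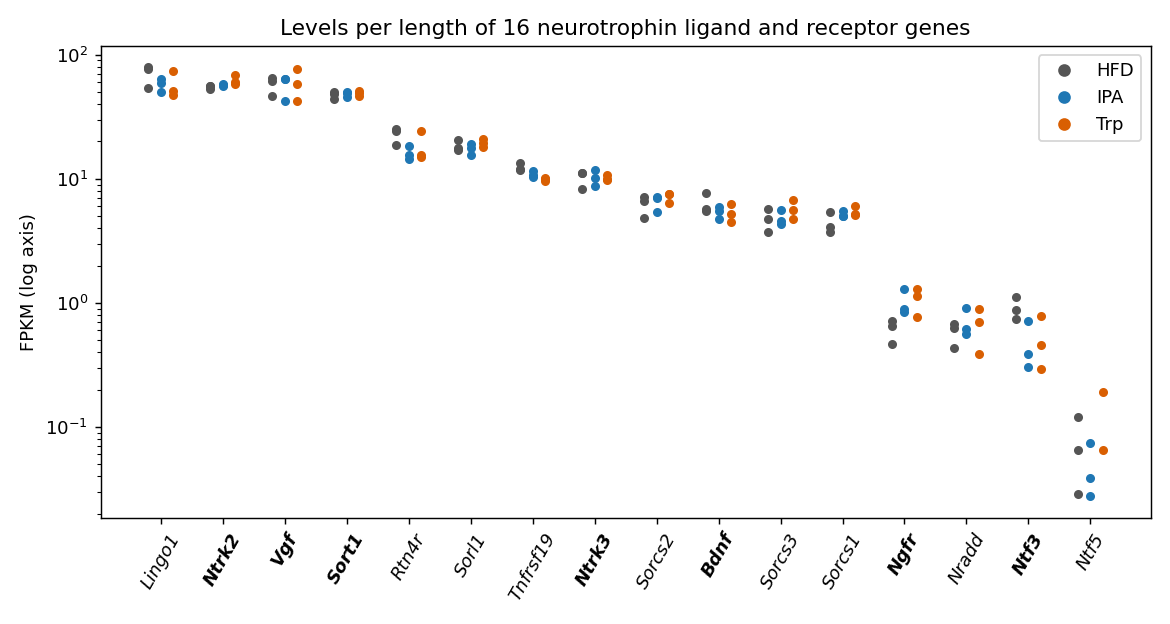
FPKM on a log axis for the 7 genes described here (bold) and 9 further neurotrophin ligand and receptor genes, ordered by mean; each point is 1 library, in grey for HFD, blue for IPA and orange for Trp. Ntrk2, Vgf and Sort1 lie between 42.4 and 76.2 FPKM in all 9 libraries and Ntf3 between 0.290 and 1.11 FPKM; the 1 library in which Ntf5 is listed at 0 is not drawn.

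The second comparison asks how these genes differ where tryptophan was added to the diet or IPA was given. Ngfr was higher in both groups than in HFD, about 1.6-fold, with no overlap between libraries. The ligand genes Ntf3 and Bdnf had lower means in both groups, with overlap. Ntrk2, Ntrk3, Sort1 and Vgf differed little in their means. No difference passed an adjusted p of 0.05 over all genes (edgeR, quasi-likelihood F-test, Benjamini-Hochberg). At an unadjusted p under 0.05 stood 1 of 7 genes for Trp against HFD, 1 for IPA against HFD, and none (0) of the Trp-IPA differences. DESeq2 called 0 of the 7 in any comparison, and limma 0 of those it tested, which left out Ntf3.

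Among all 18690 genes, 0.342% were called in the Trp-HFD comparison (0.214% higher, 0.128% lower). In the IPA-HFD comparison 0.00535% were called, all lower, and in the Trp-IPA comparison 0%. The unadjusted p was under 0.05 for 11.3%, 10.4% and 4.49% of all genes in the same order, so that 1 of 7 is near the background. The authors' deposited table likewise gives q-values from 0.220 to 0.993 for the 7 genes. Both comparisons with HFD share the 3 HFD libraries. Their values for a gene are therefore not independent of each other.

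**Figure D2:**
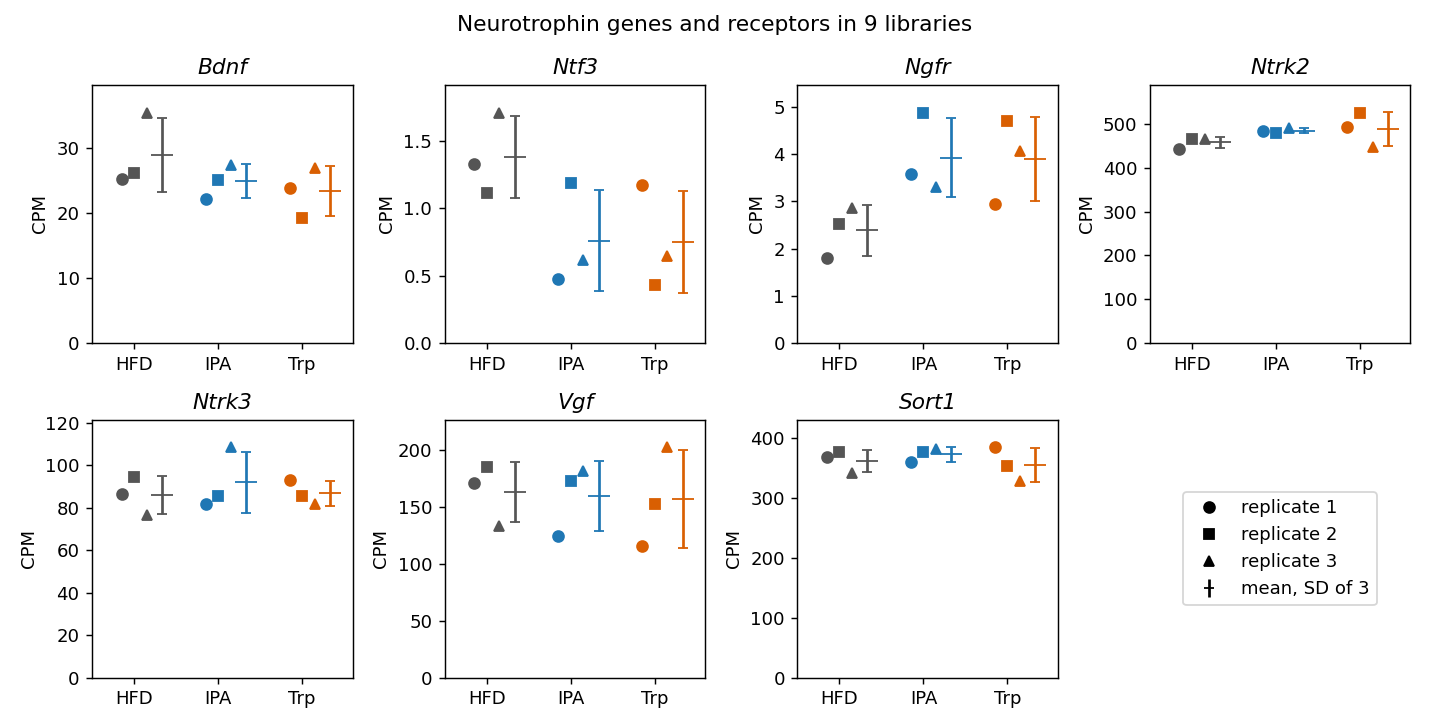
CPM in each library for the 7 genes (linear axes from 0); symbols mark the replicate number, and the bar beside each group is the mean with the SD of 3 libraries. The IPA and Trp libraries lie above all HFD libraries for Ngfr, and HFD 3 is the highest library for Bdnf and Ntf3.

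Ngfr encodes p75, the low-affinity receptor shared by all neurotrophins. It was measured at 1.80, 2.52 and 2.85 CPM in libraries 1 to 3 of HFD, 3.58, 4.88 and 3.31 CPM in those of IPA, and 2.94, 4.69 and 4.07 CPM in those of Trp. Every IPA and Trp library was above every HFD library, with HFD 3 and Trp 1 closest. The mean (± SD, n = 3) was 2.39 ± 0.538 CPM for HFD, 3.92 ± 0.841 for IPA and 3.90 ± 0.888 for Trp. The log2 fold change was 0.71 for Trp against HFD (SE 0.24, 95% interval 0.18 to 1.23, adjusted p = 0.290) and 0.72 for IPA against HFD (SE 0.24, 0.19 to 1.24, adjusted p = 0.364). The exact two-sided permutation test gave p = 0.1 in each, the smallest that 3 against 3 libraries allow. With 1 library left out at a time the values ran from 0.54 to 0.87 for Trp and from 0.53 to 0.86 for IPA. Between Trp and IPA the log2 difference was -0.0096, with an interval from -0.52 to 0.50.

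Groups that do not overlap were common in these data. They occurred for 15.5% of all genes in Trp against HFD (8.06% higher, 7.43% lower) and for 15.2% in IPA against HFD (7.19% higher, 8.01% lower). Of the 7 genes this was so for 1 in the former, Ngfr, and 2 in the latter, Ngfr and Ntrk2, all higher. With 84 to 202 counts per library, Ngfr is among the lower genes tested. The table places it on chromosome 11, from 95459644 to 95478561 on the minus strand. The table's gene starts differ from those of GRCm38 for all 7 genes, at the same gene lengths, so its build is not settled and its positions are not on the scale of the promoter windows.

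In the forebrain, p75 is known as a receptor of cholinergic neurons. The 5 markers listed for these neurons, Chat, Slc5a7, Slc18a3, Lhx8 and Gbx1, were all detected in every library. Summed, they gave 8.24, 13.4 and 9.10 CPM in libraries 1 to 3 of HFD, 18.6, 21.5 and 21.4 CPM in those of IPA, and 12.9, 23.1 and 20.4 CPM in those of Trp. The IPA libraries were above all HFD libraries and Trp 1 lay within the HFD range. All 5 had higher means in both groups, with a median log2 fold change of 0.94 for Trp and 1.13 for IPA against HFD, and 0 of 5 passed in edgeR. At an unadjusted p under 0.05 stood 4 of 5 in each comparison, beside 11.3% of all genes for Trp and 10.4% for IPA.

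Slc18a3, the vesicular acetylcholine transporter, had a log2 fold change of 1.28 for Trp (SE 0.27, adjusted p = 0.0752), and Slc5a7, the choline transporter, 1.25 for IPA (SE 0.24, adjusted p = 0.146). Of 19 alternatives, 2 called Slc18a3 for Trp and 1 called Slc5a7 for IPA, and 0 reversed either sign. Within the Trp group Trp 1 was lowest and Trp 2 highest for both the marker sum and Ngfr. Within the others the orders differed: HFD 3 was highest for Ngfr and HFD 2 for the marker sum, and IPA 3, lowest for Ngfr, had a marker sum near the highest. Summed striatal projection neuron markers, 8 of 8 higher in both groups, were 652 to 2177 CPM in HFD, 2150 to 2954 in IPA and 1540 to 2194 in Trp. Summed mural cell markers were 119 to 156 CPM in HFD, 96.8 to 117 in IPA and 107 to 144 in Trp, and meningeal fibroblast markers 13.7 to 39.3, 8.75 to 15.5 and 16.6 to 18.5 CPM. The part of cholinergic and striatal transcripts in the Ngfr values was not tested.

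**Figure D3:**
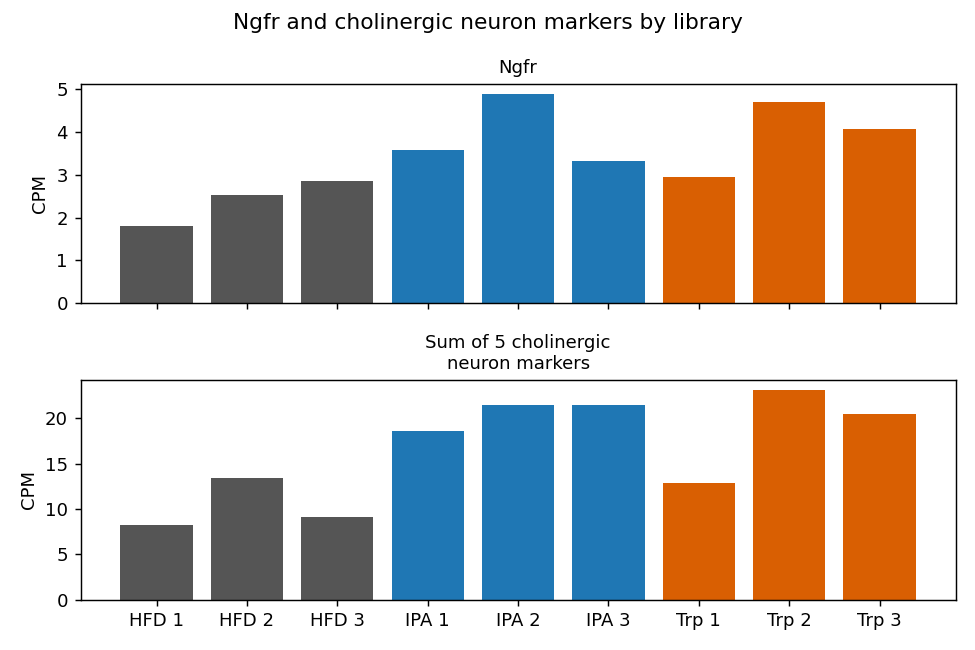
CPM by library for Ngfr and the sum of 5 cholinergic neuron markers (bars from 0, grey HFD, blue IPA, orange Trp). Trp 1 is the lowest and Trp 2 the highest Trp library in both panels, and the IPA bars exceed every HFD bar.

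Ntf3 encodes neurotrophin-3, the main ligand of TrkC. It stood at 1.33, 1.11 and 1.71 CPM in libraries 1 to 3 of HFD, 0.475, 1.18 and 0.615 CPM in those of IPA, and 1.17, 0.431 and 0.645 CPM in those of Trp. In each of the IPA and Trp groups 2 of 3 libraries were below all HFD libraries, and IPA 2 and Trp 1 were within the HFD range. The mean (± SD, n = 3) was 1.38 ± 0.304 CPM for HFD, 0.758 ± 0.375 for IPA and 0.748 ± 0.380 for Trp, or 54.8% and 54.1% of the HFD mean. The log2 fold change was -0.87 for Trp (SE 0.41, 95% interval -1.75 to 0.010, adjusted p = 0.451) and -0.86 for IPA (SE 0.41, -1.75 to 0.026, adjusted p = 0.487).

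The counts behind these values were 18 to 72 per library, the fewest of the 7 genes. With 1 library left out the Trp value ran from -1.35 (without Trp 1) to -0.60 (without Trp 2), and the IPA value from -1.33 (without IPA 2) to -0.62 (without IPA 1). The interval for Trp against IPA ran from -0.92 to 0.91, and the biological coefficient of variation that edgeR estimated for Ntf3, 33.6%, was the highest of the 7 genes. Dentate granule markers differed in how far they went with these values. C1ql2 stood at 8.18, 2.14 and 15.5 CPM in libraries 1 to 3 of HFD, 2.40, 5.67 and 2.48 CPM in those of IPA, and 9.18, 3.85 and 2.12 CPM in those of Trp. The 4 libraries highest for C1ql2, HFD 3, Trp 1, HFD 1 and IPA 2, were also the 4 highest for Ntf3. The same 4 were highest for Dsp, but not for the dentate markers Prox1, Calb1 and Npnt. Among the CA markers they were highest for Fibcd1, Spink8 and Lct, but not for Wfs1, Ociad2 and Grik4. Calb1 was highest in IPA 1 (243 CPM), where Ntf3 stood at 0.475 CPM. Of the 5 dentate markers, 5 had lower means in Trp and 4 in IPA than in HFD, none was at 0 in every library, and 0 were called. Their sum was 219 to 257 CPM in HFD, 227 to 277 in IPA and 209 to 237 in Trp. Their part in the Ntf3 values was not tested. In FPKM the IPA libraries (0.304 to 0.711) did not overlap the HFD libraries (0.739 to 1.11), unlike in CPM. The share of all genes with groups separate in FPKM was not counted. The gene lies on chromosome 6 in the table, from 126078375 to 126143873 on the minus strand.

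Bdnf, the ligand of TrkB, was measured at 25.1, 26.2 and 35.4 CPM in libraries 1 to 3 of HFD, 22.1, 25.1 and 27.3 CPM in those of IPA, and 23.8, 19.2 and 26.9 CPM in those of Trp. HFD 3 was the highest of all 9 libraries and Trp 2 the lowest, and the groups overlapped. The mean (± SD, n = 3) was 28.9 ± 5.64 CPM for HFD, 24.8 ± 2.58 for IPA and 23.3 ± 3.86 for Trp. The log2 fold change was -0.31 for Trp (SE 0.15, 95% interval -0.64 to 0.024, adjusted p = 0.481) and -0.22 for IPA (SE 0.15, -0.55 to 0.12, adjusted p = 0.644). Without HFD 3 these were -0.14 for Trp and -0.047 for IPA. The table places Bdnf on chromosome 2, from 109505045 to 109557352 on the plus strand. The antisense gene Gm45346, whose exons overlap it in GENCODE M21, gave 0 to 4 counts.

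The ratio of the 2 ligand genes was read from FPKM. Bdnf exceeded Ntf3 by 6.26 to 7.79 times in HFD, by 7.79 to 15.6 times in IPA and by 6.76 to 15.3 times in Trp. The median ratio was 6.90, 15.1 and 13.6 in that order. The ranges of IPA and Trp both reached that of HFD or its edge, and the ratio was not tested.

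**Figure D4:**
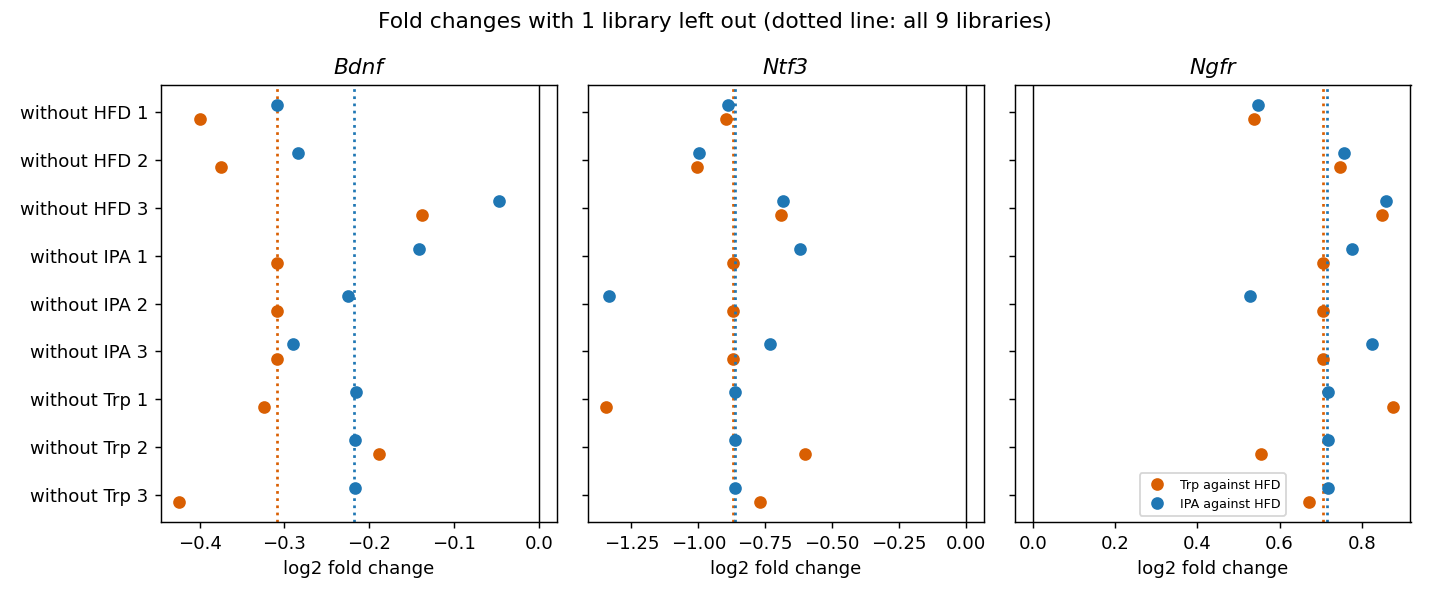
Log2 fold changes of Bdnf, Ntf3 and Ngfr against HFD, with 1 library left out at a time (points; orange Trp, blue IPA) and with all 9 libraries (dotted lines). Every value for Ngfr is above 0 and every value for Ntf3 and Bdnf below 0; Bdnf comes closest to 0 without HFD 3, at -0.047 for IPA.

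Ntrk2 encodes TrkB, made in neurons as a kinase and in astrocytes mostly as a truncated form without kinase. GENCODE M21 lists 7 protein-coding transcripts for it, with 5 different coding lengths from 466 to 821 codons, and the gene-level counts do not separate these forms. It was measured at 443, 466 and 465 CPM in libraries 1 to 3 of HFD, 484, 479 and 492 CPM in those of IPA, and 492, 526 and 448 CPM in those of Trp. The IPA libraries were all above the HFD libraries, by little, and Trp 3 lay within the HFD range. The fold was 1.06 for IPA (95% interval 0.936 to 1.20, adjusted p = 0.759) and 1.07 for Trp against HFD (0.944 to 1.21, adjusted p = 0.730). In the table it spans 58954383 to 59281784 of chromosome 13, plus strand. In FPKM all 3 Trp libraries (58.4 to 68.1) were above the HFD libraries (53.4 to 56.4) and, narrowly, the IPA libraries (56.5 to 58.3). The Trp group was thus separate in FPKM and not in CPM. For Ntrk2, CPM divided by FPKM was 8.11, 7.73 and 7.68 in Trp 1 to 3 and 8.22 to 8.58 in the HFD and IPA libraries. This quotient was lowest in Trp 2 or Trp 3 for each of the 7 genes, so the shift was not particular to Ntrk2. The share of all genes with groups separate in FPKM was not counted.

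Ntrk3, the TrkC gene, stood at 86.6, 94.6 and 76.6 CPM in libraries 1 to 3 of HFD, 81.6, 85.7 and 108 CPM in those of IPA, and 93.2, 85.4 and 81.8 CPM in those of Trp. The groups overlapped throughout. The fold was 1.01 for Trp (95% interval 0.848 to 1.20) and 1.07 for IPA (0.898 to 1.27) against HFD. Like Ntrk2 it has kinase and truncated forms, in 6 protein-coding transcripts, that the counts do not separate. It spans 77825707 to 78387760 of chromosome 7, minus strand, in the table.

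Sort1, the gene of sortilin, which sorts neurotrophin precursors and binds them together with p75, had the lowest ratio of highest to lowest library among the 7 genes, 1.17. It ran from 341 to 376 CPM in HFD, from 359 to 382 CPM in IPA and from 328 to 384 CPM in Trp. The fold against HFD was 0.981 for Trp (95% interval 0.864 to 1.11) and 1.03 for IPA (0.906 to 1.17). Its position in the table is chromosome 3, 108191398 to 108268827, plus strand. The antisense gene Gm12523, whose exons overlap Sort1 in GENCODE M21, gave 0 to 4 counts.

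Vgf, whose peptides act at hippocampal synapses and which BDNF induces, was measured at 171, 185 and 134 CPM in libraries 1 to 3 of HFD, 124, 173 and 182 CPM in those of IPA, and 116, 152 and 202 CPM in those of Trp. The highest and the lowest library were both in the Trp group. The mean (± SD, n = 3) was 163 ± 26.7 CPM for HFD, 160 ± 31.0 for IPA and 157 ± 43.3 for Trp. The log2 fold change was -0.056 for Trp (95% interval -0.56 to 0.44) and -0.032 for IPA (-0.53 to 0.47). Vgf lies at 137055246 to 137062205 of chromosome 5, plus strand, in the table. Summed hypothalamic markers were also highest in Trp 3, at 173 CPM, but lowest in HFD 2 (7.45 CPM) and IPA 3 (2.81 CPM), the libraries with the next highest Vgf values.

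**Figure D5:**
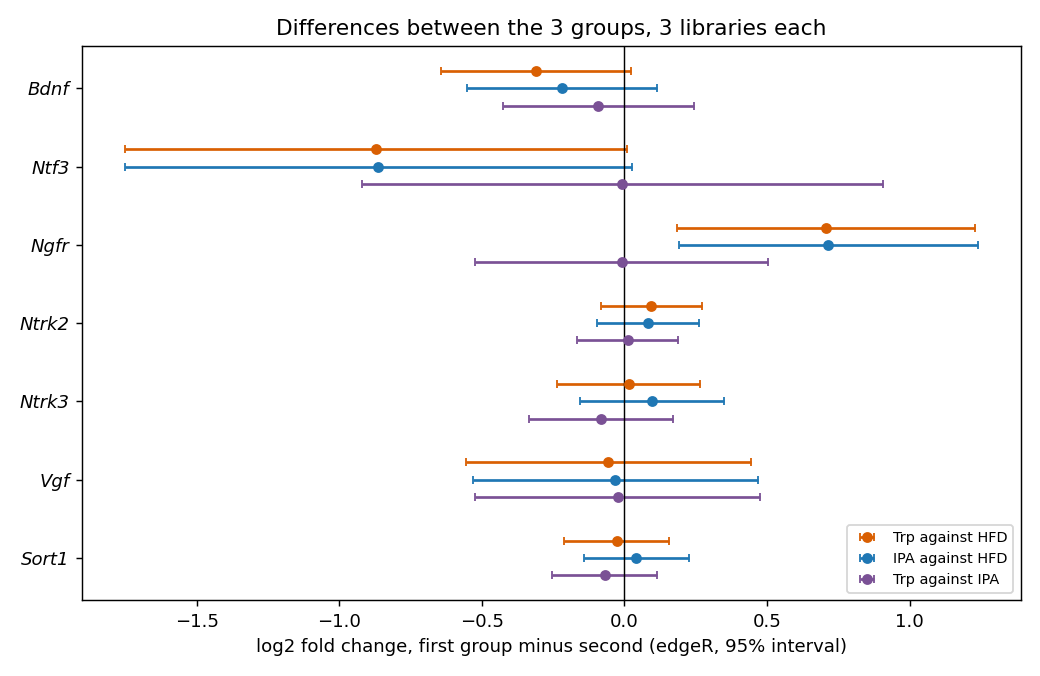
Log2 fold changes of the 7 genes in the 3 comparisons, with 95% intervals from edgeR's quasi-likelihood fit (3 libraries per group). The intervals of Ngfr against HFD lie above 0, those of Ntrk2 and Sort1 are narrowest, and all intervals for Trp against IPA span 0.

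The direct comparison of the Trp with the IPA group separated none of the 7 genes in CPM, where 11.2% of all genes did not overlap (5.61% higher, 5.55% lower in Trp). The largest log2 difference was that of Bdnf, at -0.091 (95% interval -0.42 to 0.24, adjusted p = 0.987). For Ntrk2 the interval was -0.17 to 0.19 and for Sort1 -0.25 to 0.12.

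The wider pathway was read from 5 gene lists. Of the 10 other ligand and receptor genes tested, 0 passed in either direction in any comparison, with medians of 0.11 for Trp and -0.021 for IPA against HFD beside medians over all genes of -0.0022 and -0.0056. Tnfrsf19 (TROY), a p75 relative that can replace it in the Nogo receptor complex, averaged 55.9 ± 3.25 CPM for HFD, 48.7 ± 2.88 for IPA and 42.3 ± 2.55 for Trp (SD, n = 3; log2 fold change -0.40 for Trp, SE 0.088, adjusted p = 0.0940; 0.0407 without HFD 3). Rtn4r, the Nogo receptor, stood at -0.40 (adjusted p = 0.429) and -0.49 (adjusted p = 0.400) for Trp and IPA, and Lingo1 at -0.36 for Trp (adjusted p = 0.424). The authors' deposited table gives q = 0.0167 for Tnfrsf19 in Trp and q = 0.0472 for Rtn4r in IPA.

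Of 20 genes tested for processing, sorting and release, 0 passed in either direction. Medians were 0.050 for Trp and -0.0010 for IPA against HFD. Scg2, a granin of dense-core vesicles, had 0.45 for Trp (SE 0.14, adjusted p = 0.242) and 0.26 for IPA (adjusted p = 0.519). Scg5, a chaperone of the convertase PC2, had 0.21 for Trp (adjusted p = 0.306), and Pcsk1, the convertase PC1/3, 0.29 for IPA (SE 0.10, adjusted p = 0.391).

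The 34 adaptor and signalling genes were all tested, and 0 passed. Their medians were -0.024 for Trp and 0.0082 for IPA. Dusp6, a phosphatase of ERK, had -0.33 for Trp (SE 0.11, adjusted p = 0.263) and -0.23 for IPA (adjusted p = 0.482). Pik3r1, the regulatory subunit of PI3 kinase, had 0.22 (adjusted p = 0.315) and 0.25 (adjusted p = 0.338).

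Of 20 activity-regulated genes, 2 fell in Trp against HFD and 0 rose, with a median of -0.56. Over all genes 0.128% were called lower and 0.214% higher in that comparison, with a median of -0.0022. The 2 called were the immediate early genes Fos and Egr1, which fell by 1.56 (SE 0.22, adjusted p = 0.0207) and 0.84 (SE 0.15, adjusted p = 0.0415) on the log2 scale. For IPA the median was -0.37, and 0 of 20 passed in edgeR, with Fos at -1.42 (adjusted p = 0.134; 0.000735 without HFD 3). Others of the list had higher means in IPA. Inhba, the inhibin and activin subunit gene, stood at 7.49 to 8.21 CPM in HFD and 12.9 to 17.5 CPM in IPA (0.93, SE 0.14, adjusted p = 0.106; 0.0347 without HFD 3), and the authors' deposited table gives it q = 2.76e-05. Homer1, a synaptic scaffold gene, had 0.44 (SE 0.14, adjusted p = 0.341). For lower genes the authors' deposited table gives q = 6.67e-10 in Trp and 3.38e-07 in IPA for Fos. For Egr1 it gives 9.5e-05 in Trp and 0.336 in IPA. Further lower genes of the list have a q under 0.05 there. The Trp calls depended on the fit. With a replicate block the adjusted p was 0.0551 for Fos and 0.0625 for Egr1, and Fos lost its call without HFD 1, HFD 2, Trp 1 or Trp 2 (0.0559 to 0.126). Egr1 lost it with any library but HFD 3 left out (0.0609 to 0.200). Of 19 alternatives, 13 called Fos and 6 called Egr1, all with the same direction. Among the HFD libraries Fos was lowest in HFD 3 (33.9, 32.2 and 19.0 CPM in HFD 1 to 3), where Bdnf was highest. It stood at 8.11 to 12.5 CPM in the IPA and 8.63 to 10.5 CPM in the Trp libraries.

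Of 22 regulators of Bdnf transcription, 0 passed in either comparison with HFD. In Trp 16 were lower and 6 higher (median -0.12), and in IPA 8 were lower and 14 higher (median 0.025). Mef2c, a transcription factor that takes part in activity-dependent transcription, had -0.46 for Trp (SE 0.12, adjusted p = 0.182; 0.00810 without HFD 3). Bhlhe40, which is known to bind the Bdnf exon IV promoter, had -0.40 (SE 0.13, adjusted p = 0.286), and the coactivator gene Crebbp -0.23 (adjusted p = 0.339).

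The genes whose pattern over the 9 libraries was most like that of each of the 7 were found among 11946 or 11947 genes, by the root mean square difference of log2 CPM after each gene was centred on its own mean. For Bdnf these were Unc5b, a netrin receptor, and Fa2h, a fatty acid hydroxylase (0.069 and 0.085, against a spread of Bdnf itself of 0.24, SD over the 9 libraries). For Ntf3 they were the transcription factors Prdm8 and Bhlhe22 (0.26 and 0.34, own SD 0.67). Ngfr was nearest to Pglyrp1, a peptidoglycan recognition protein, and Tinagl1 (0.19 and 0.21, own SD 0.45). Vgf was nearest to Fscn1, the actin bundler fascin, and Igsf21 (0.064 and 0.0996, own SD 0.28). Ntrk3 was nearest to Rasgrp1 and Bex4 (0.054 and 0.055, own SD 0.15). Ntrk2 (Ufd1 and Ank, 0.020 and 0.030, own SD 0.076) and Sort1 (Actr3b and Ncoa1, 0.033 and 0.036, own SD 0.078) were the 2 least variable of the 7.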

How the data were processed

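RNA-seq was analysed for 9 libraries in 3 labelled groups. StringTie 2.1.3b and build mm10 stand in the submitters' processing notes. The aligner, counter, annotation and strand setting are not stated in the sources used. Per the file headers the authors deposited raw counts and FPKM per gene and library, and a log2 fold change, p-value and q-value for each comparison with HFD, whose test is not stated. All count and FPKM columns were mapped to samples (0 left over). The table's coordinates share chromosome and length with GENCODE M21 (GRCm38) for 7 of 7 genes and the start for 0, so their build is not settled.

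Counts were tested in R 4.3.3 with edgeR 4.0.16: filterByExpr (minimum count 10), TMM scaling, a robust quasi-likelihood fit of 1 mean per group over all 9 libraries, and Benjamini-Hochberg adjustment over all 18690 genes. SEs are the absolute log2 fold change over the square root of F. Log2 CPM used a prior count of 2. The series' design text gives 3 mice per group, so p-values measure the spread among these mice. The procedure was tested on counts simulated from its own fitted dispersions. These counts were drawn independently for each gene, so the simulation is no check on differences in tissue content between libraries. The 7 genes, 5 gene lists and marker lists were chosen with earlier results of these data known. Named genes are the 7, up to 4 per list with the smallest p, those that passed, and the 2 nearest in pattern with a mean FPKM of at least 1 (no predicted genes or pseudogenes); Creb1 and the cell type markers given singly (such as Slc18a3, Slc5a7 and C1ql2) lie outside that rule and were chosen after their values were seen. Alternatives were DESeq2 1.42.0, limma 3.58.1 on log2 FPKM with pseudocounts of 0.5, 0.1 and 1, RLE and upper quartile scaling, no filter, 6 libraries, a replicate block, and leaving out each library; leaving out HFD 3 with Trp 3 was chosen after seeing the data. Some genes of the lists are not reported here by name. Figures used Python 3.11.15 and matplotlib 3.10.9.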

Additional observations from a re-analysis of the deposited data

How the results depend on the processing

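No alternative gave a call for any of the 7 genes, and the smallest adjusted p over 19 alternatives was 0.121 (Ngfr, IPA against HFD, without HFD 3 and Trp 3). Of 390 values, 348 kept their sign. Signs held in all alternatives against HFD for Ngfr (0.31 to 0.87), Bdnf (-0.42 to -0.046), Ntrk2 (0.039 to 0.17) and Ntf3 (-1.35 to -0.59). Ntf3 was not in the limma fits, whose filter on FPKM it did not pass. Ngfr passed that filter only through IPA 2 (1.29 FPKM), Trp 2 (1.29) and Trp 3 (1.13), in the groups where it is high. Its limma values are therefore no support for its direction. With FPKM (pseudocounts 0.5, 0.1 and 1) Trp against HFD was 0.052, 0.052 and 0.051 for Sort1 and 0.0018, 0.0016 and 0.0020 for Vgf, and Trp against IPA was 0.050, 0.066 and 0.039 for Ngfr, 0.018, 0.018 and 0.018 for Sort1 and 0.050, 0.050 and 0.049 for Vgf. Trp against IPA was 0.0098 for Ngfr and 0.015 for Ntf3 with upper quartile scaling, and 0.0021 and 0.0060 without a filter. Without HFD 3 and Trp 3, Ntf3 was 0.10 in Trp against IPA and Ntrk3 -0.020 in Trp against HFD.

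With each library left out in turn, Trp against IPA ran from -0.21 to 0.028 for Bdnf, -0.16 to 0.18 for Ngfr, -0.48 to 0.46 for Ntf3, -0.046 to 0.068 for Ntrk2, -0.16 to 0.054 for Ntrk3 and -0.25 to 0.15 for Vgf. Trp against HFD ran from -0.061 to 0.090 for Ntrk3, -0.087 to 0.027 for Sort1 and -0.28 to 0.12 for Vgf, and IPA against HFD from -0.039 to 0.17 for Ntrk3 and -0.16 to 0.12 for Vgf.

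The count of all genes called moved far more, and the cause was not tested. For Trp against HFD it was 64, and 97 without a filter, 8 with the 6 libraries compared, 309 with DESeq2, 775 without HFD 3 and Trp 3, and 13 (without Trp 2) to 323 (without HFD 3) with 1 library left out. For IPA against HFD it was 1, and 6, 2, 168, 247 and 0 to 52 (without HFD 3) in the same order. For Trp against IPA it was 0, with 840 genes at an unadjusted p under 0.05. It was 3 without a filter, 15 with DESeq2, 2, 2 and 2 with FPKM, 2 without HFD 3 and Trp 3, and 0 to 1 with 1 library left out. With a replicate block it was 23 for Trp against HFD and 0 for IPA against HFD. No pairing of the mice by number was seen: deviations of same-numbered libraries correlated at -0.20 to 0.048, and 1 of 9 libraries correlated best with its own number. With 3 libraries per group these correlations cannot exclude a pairing. The block changed no call among the 7 genes, and ended those of Fos and Egr1. Ntf3 had the fewest counts (18 to 72 per library) and the widest spread within groups (SD 0.57 on the log2 scale) of the 7, and the parts of depth and of variation between mice in its intervals were not tested.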

Other observations

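Creb1, the transcription factor that binds the CRE and is on the list of Bdnf regulators, gave 85 counts in HFD 3 and 2042 to 2931 counts in the other 8 libraries. In CPM this was 2.02 against 46.7 to 59.4. The FPKM of the same gene was 1.37 in HFD 3 against 5.05 to 6.25, a smaller gap. CPM divided by FPKM, which depends on the length used for a gene, was 1.48 for Creb1 in HFD 3 and 8.61 to 9.57 elsewhere. For the 7 neurotrophin genes this quotient varied by 1.09 to 1.24 times between libraries. Of 18330 tested genes with counts and FPKM above 0 in every library, 5 had a quotient more than 4 times below their own median in HFD 3, and 0 to 2 in each of the other libraries. The log2 fold changes of Creb1 against HFD, 0.61 for Trp (SE 0.90) and 0.72 for IPA (SE 0.90), rest on that library. Creb1 was singled out after its values were seen.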
